A study of Mus musculus with 6 samples.

Results

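The 33 protein-coding laminin and integrin subunit genes of a table of 25166 genes were followed in muscle stem cells (MuSCs) of mice that lack *Sirt6* in this lineage. They were picked by gene symbol, as the 11 laminin chains (*Lama*, *Lamb*, *Lamc*), 14 integrin α subunits (*Itga*) and 8 integrin β subunits (*Itgb*) present in the table. The symbol rule used no measured value, but this family was chosen with earlier results of these data known. The α subunit genes *Itga4*, *Itgad*, *Itgam* and *Itgax* were not analysed here. The study sequenced RNA of freshly isolated MuSCs from 3 Sirt6mKO and 3 control (Ctrl) samples of C57BL/6 mice, 1 library per sample, to ask which transcripts differ when the deacetylase SIRT6 is absent. Sirt6mKO mice carry *Sirt6* fl/fl alleles, in which exons 4 to 6 lie between loxP sites, and a Cre recombinase expressed from the *Pax7* locus (Pax7ICN) throughout life, so deletion can occur in any cell with a history of *Pax7* activity and its age is not controlled. The labels call the controls wild type. The legend of the figure drawn from these data names male mice of 12 weeks. For another panel of that figure the study describes control mice as *Sirt6* fl/fl without Pax7ICN, and it names littermates as its controls throughout. Whether this control genotype holds for these libraries is not stated. Cells were released from limb and trunk muscle with Dispase and collagenase, depleted of Sca1+, CD45+ and CD31+ cells and sorted. The antibody gate was Integrin-α7+/CD34+, in which the protein product of *Itga7*, one of the genes described here, is itself a criterion for sorting. Gates on a reporter are described as well, GFP in Pax7ZsGreen mice or YFP in mice with Pax7ICN and ROSA-YFP, and which gate gave these libraries is not stated. The study also lists the ROSA26-YFP strain in the crosses that gave Sirt6mKO mice. Whether both groups passed the same gate is not stated. If they did not, gate and genotype cannot be told apart.

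Laminins are trimers of 1 α, 1 β and 1 γ chain that polymerise into the sheet on which a basement membrane is built. In skeletal muscle the MuSC lies between the myofiber and such a sheet, which is rich in the α2 chain, and touches it through integrins, heterodimers of an α and a β subunit that link matrix outside the cell to actin inside. Integrin α7β1 is the main laminin receptor of muscle cells. The α1, α2, α10 and α11 subunits pair with β1 to bind collagens, and α5, α8, αv and αIIb belong to receptors for ligands with an RGD motif such as fibronectin and vitronectin.

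The values are the deposited signal, which is the read count of a gene divided by a size factor of its library and rounded to a whole number. The reads rebuilt from it totalled 1267027 to 3209964 per library, and 1 read stood for a signal of 0.729 to 1.792. Ctrl replicate 3 was the shallowest library. *Sirt6* itself had a signal of 19, 20 and 13 where the label reads Sirt6mKO, against 18, 17 and 20 in Ctrl. This whole-gene value also counts exons outside the deleted ones, so it does not check the labels, and values per exon were not analysed here. RNA came from 100 to 200 sorted cells per sample, and nothing in the labels says that replicates were separate animals, so the p-values measure the spread between these samples. Of the 33 members 25 reached a mean signal of 5 and were tested within a set of 14227 genes. Some libraries stood apart in genes outside the family. The tendon genes *Fmod* and *Thbs4* had a signal of 481 and 508 in Sirt6mKO replicate 2 and of 163 and 191 in replicate 3, against 7 to 17 in the other 4 libraries, and Ctrl replicate 1 held 679 for the basement membrane linker *Nid1* against 227 and 183 in the other controls.

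Laminin and integrin genes that differed were higher in Sirt6mKO MuSCs, and none was lower past the thresholds. The transcripts of the laminin chains α5 (*Lama5*) and γ3 (*Lamc3*) and of the collagen receptor subunits α1 (*Itga1*) and α11 (*Itga11*) were more than 2-fold higher, those of laminin β2 (*Lamb2*) and of integrins α5 (*Itga5*) and β5 (*Itgb5*) were higher by less, and the most abundant partners, *Lama2*, *Lamc1* and *Itgb1*, had nearly the same level in both groups. By limma-trend on log2(signal + 1) with Benjamini-Hochberg adjustment over all tested genes, 4 of the 25 tested members (16.0%) exceeded Ctrl by 2-fold or more with an adjusted p no larger than 0.05, against 1.57% of all tested genes. No member was lower by both criteria, against 1.02% of all genes, and 14 members had an unadjusted p under 0.05, against 18.1% of all genes, among them the lower *Itga7* and *Itgav*. By the adjusted p alone 7 members (28.0%) were higher and 0 lower, where 2.64% and 1.88% of all genes were. All 3 Sirt6mKO libraries lay above all 3 Ctrl libraries for 9 tested members (36.0%, against 11.1% of all genes) and below them for 2 (8.0%, against 10.1%), the latter share being close to that of the table as a whole. The median log2 fold change of the 25 was 0.51 and that of all genes 0.00, with 18 of 25 members and 7173 of 14227 genes above 0. In bulk RNA of sorted cells, fewer cells of a type and less RNA per cell cannot be told apart.

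**Figure D1:**
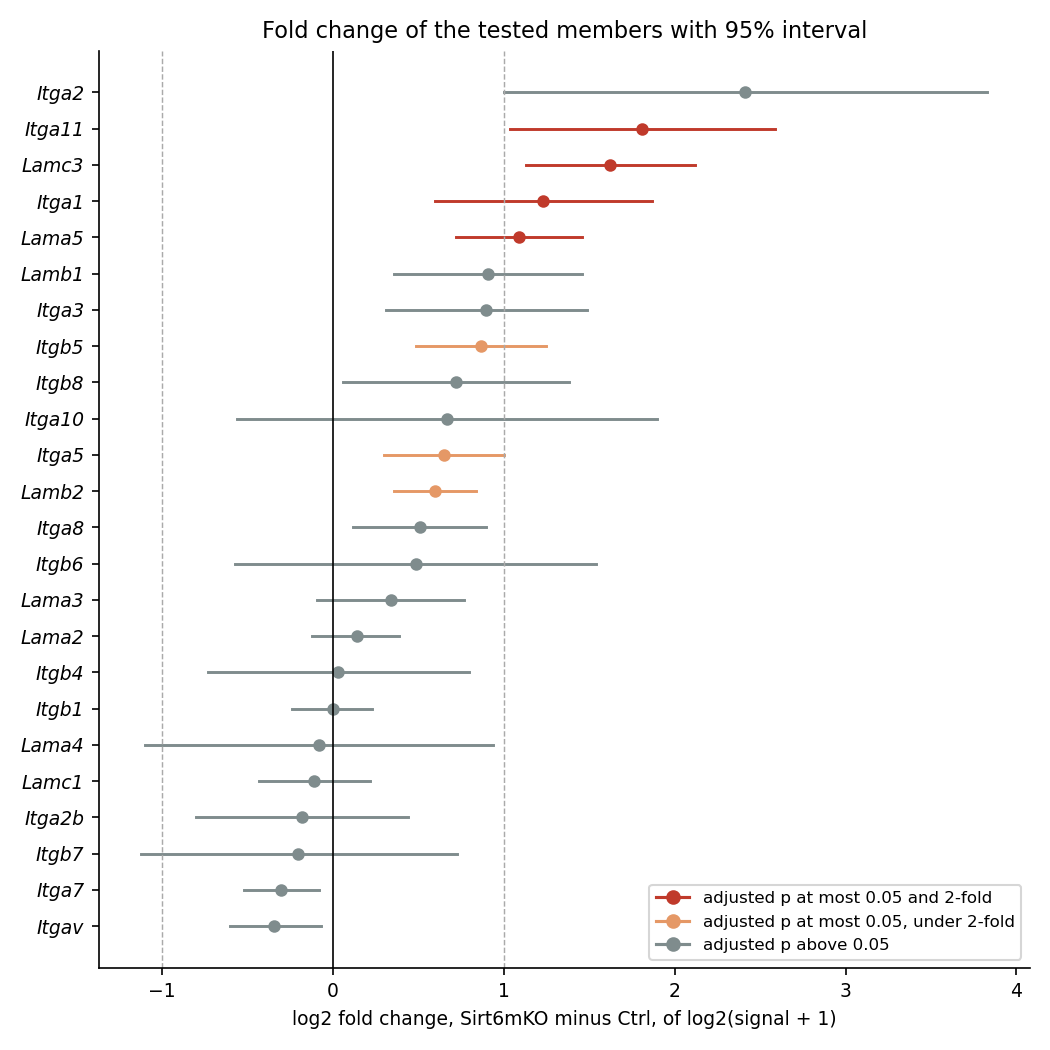
Log2 fold change of log2(signal + 1), Sirt6mKO minus Ctrl, of tested laminin and integrin genes with 95% intervals of the limma-trend fit (3 libraries per group), ordered by size. Red points passed the adjusted p and the 2-fold change, orange points the adjusted p alone and grey points neither, and the dashed lines mark 2-fold. The 4 red points lie between 1.09 and 1.81, while *Itga2* at 2.41 has the widest interval and is grey.

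The start regions of the genes past both thresholds are shown because these genes moved in the same direction while their start regions differ in base composition. RefSeq (GRCm38.p6) gave a promoter window, 250 bases before to 50 after the start of transcription, for 20 of the 33 members, with *Lama5*, *Itga1* and *Itga11* among them and *Lamc3* not. The sequences are written 5′ to 3′ on the strand of the gene, and capitals mark GC boxes (GGGCGG) and E-boxes (CANNTG), searched on both strands. *Lama5* lies on the minus strand (chr2:180225810-180226109), *Itga1* on the minus strand (chr13:115101915-115102214) and *Itga11* on the plus strand (chr9:62677605-62677904).
Lama5: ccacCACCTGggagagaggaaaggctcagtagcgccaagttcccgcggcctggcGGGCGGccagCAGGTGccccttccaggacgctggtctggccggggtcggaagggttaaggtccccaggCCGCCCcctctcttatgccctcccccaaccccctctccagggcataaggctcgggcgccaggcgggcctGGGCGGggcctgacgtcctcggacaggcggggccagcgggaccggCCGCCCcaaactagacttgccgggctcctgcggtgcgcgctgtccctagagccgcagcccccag
Itga1: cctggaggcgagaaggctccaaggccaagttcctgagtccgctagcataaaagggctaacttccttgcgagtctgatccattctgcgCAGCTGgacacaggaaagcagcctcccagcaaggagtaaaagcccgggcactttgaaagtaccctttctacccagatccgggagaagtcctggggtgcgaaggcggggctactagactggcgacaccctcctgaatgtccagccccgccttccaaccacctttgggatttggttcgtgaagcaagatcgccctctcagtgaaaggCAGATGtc
Itga11: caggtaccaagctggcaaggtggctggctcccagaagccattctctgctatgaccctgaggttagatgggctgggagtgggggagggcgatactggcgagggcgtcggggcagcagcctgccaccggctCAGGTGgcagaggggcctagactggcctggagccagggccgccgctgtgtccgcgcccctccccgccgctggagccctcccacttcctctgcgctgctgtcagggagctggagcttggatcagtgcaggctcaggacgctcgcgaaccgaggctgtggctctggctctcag
The *Lama5* window had a GC content of 72.7% and 4 GC boxes, that of *Itga11* 68.0% and 0, and that of *Itga1* 56.7% and 0, against a median of 52.7% over 27025 promoters. Each of these windows held an E-box, as did 72.1% of all promoters. None held an AP-1 motif (TGANTCA) or a TEAD motif (GGAATG), which 7.9% and 14.6% of all promoters contained. Over the 20 members with a window, 45.0% had a GC box, against 35.9% of all promoters.

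The laminin α chains give a laminin its receptor preference. *Lama2* encodes the α2 chain of the myofiber basal lamina, whose loss causes a congenital muscular dystrophy, and it was the most abundant α chain gene, with a signal per kilobase of exons of 229 ± 4.44 in Sirt6mKO and 209 ± 23.8 in Ctrl (mean ± SD, n = 3). Its signal was 3657, 3786 and 3779 in Sirt6mKO replicates 1 to 3 and 3860, 3178 and 3198 in Ctrl replicates 1 to 3. The groups overlapped, since Ctrl replicate 1 was the highest of the 6 libraries, and the log2 fold change was 0.14 ± 0.12 (SE; limma-trend adjusted p = 0.60).

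*Lama5* encodes the α5 chain, which is widespread in embryonic and vascular basement membranes. It stood at 471, 447 and 345 in Sirt6mKO and at 237, 207 and 152 in Ctrl. The lowest Sirt6mKO library lay above the highest Ctrl library, and the level was 2.13-fold higher in Sirt6mKO (log2 fold change 1.09 ± 0.17, limma-trend adjusted p = 0.0035). Leaving out any single library gave 0.91 to 1.23 with adjusted p-values of at most 0.041. Without Ctrl replicate 3 the log2 fold change was 0.91, under 2-fold. The gene occupies chr2:180176373-180225859 of GRCm38 on the minus strand, and *Adrm1*, 86 bp away on the other strand, had a log2 fold change of 0.24 ± 0.14 (adjusted p = 0.42). None of the 5 tested genes within 100 kb of *Lama5* passed both thresholds.

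*Lama3*, known for the α3 chain of epithelial laminins, had a signal of 513, 734 and 672 in Sirt6mKO and 392, 709 and 450 in Ctrl. Per kilobase it was above *Lama5* in Ctrl (48.1 ± 15.7 against 17.4 ± 3.79), but the groups overlapped and the difference did not pass (log2 fold change 0.34 ± 0.20, limma-trend adjusted p = 0.41). *Lama4*, the α4 chain of vessel basement membranes, was at 6 to 22 in all libraries with no order between groups. *Lama1*, the α1 chain of early embryos, was at 0 to 2 and was not tested.

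**Figure D2:**
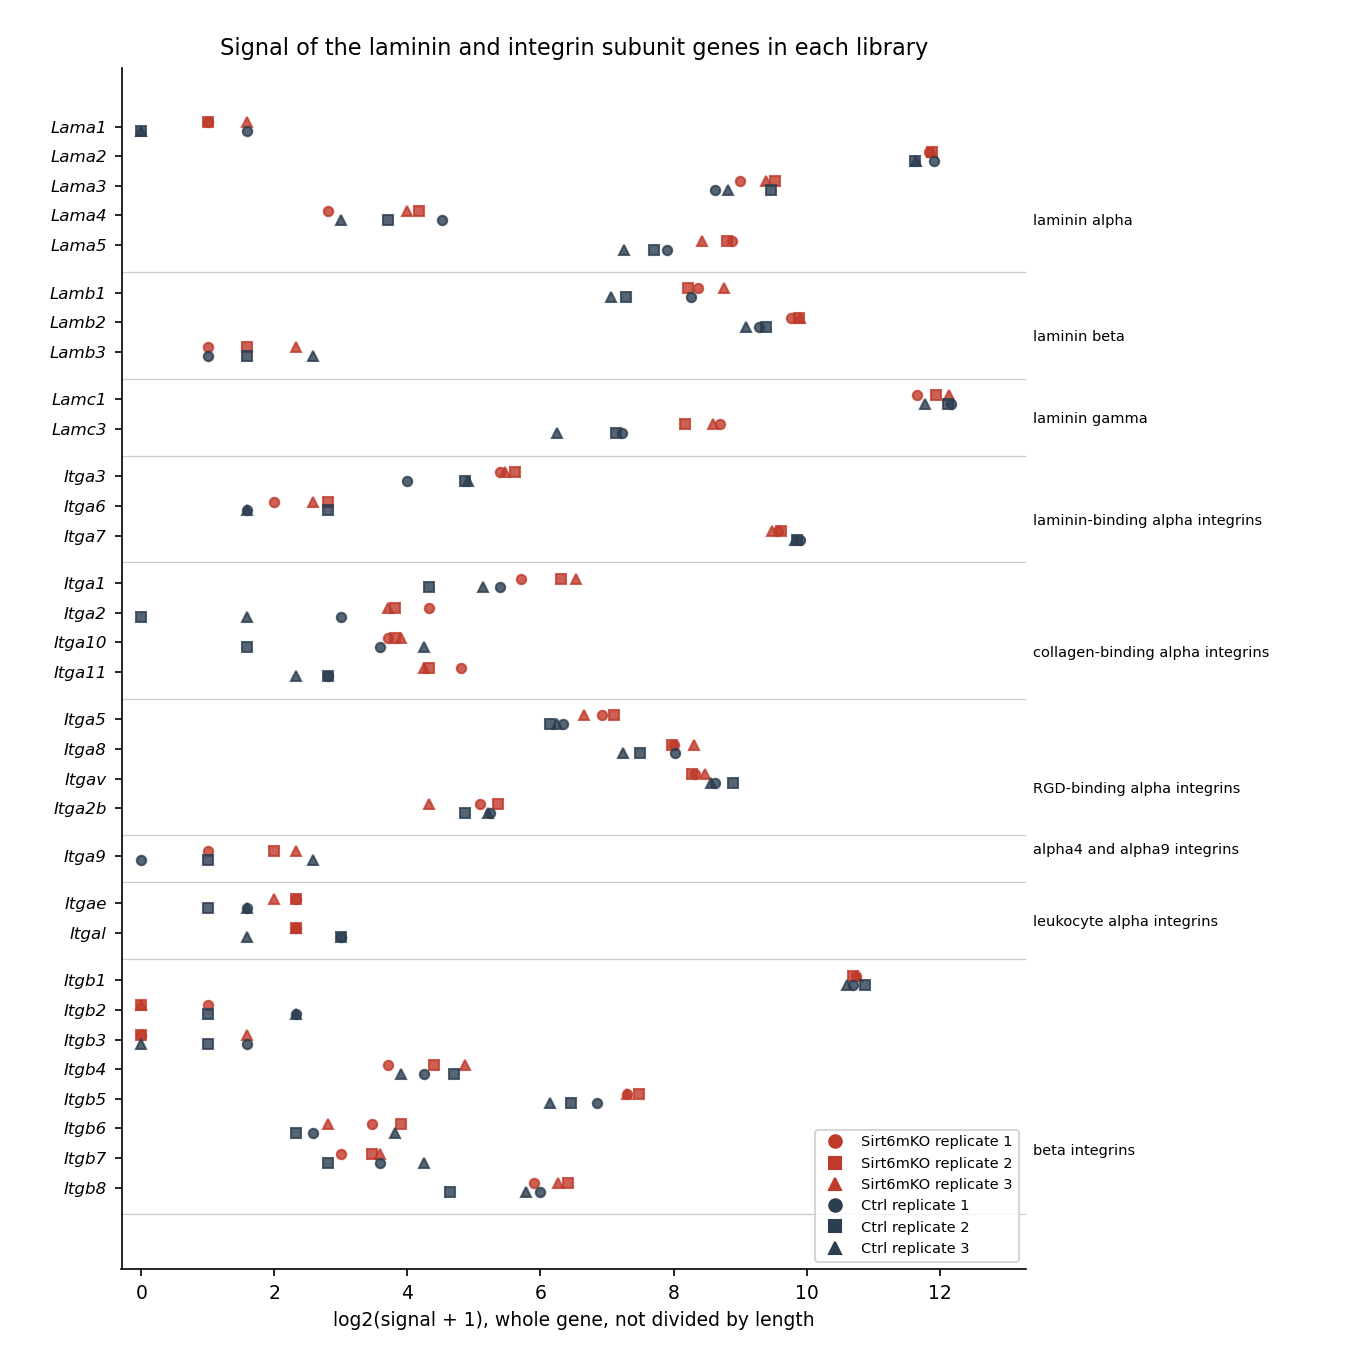
Signal of laminin and integrin genes in each of the 6 libraries as log2(signal + 1), not divided by gene length, with Sirt6mKO in red and Ctrl in dark blue and 1 marker shape per replicate number. *Lamc3*, *Lama5*, *Lamb2*, *Itga11* and *Itgb5* show the red markers to the right of all dark ones, and the order is reversed for *Itga7* and *Itgav*.

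Among the β chains, *Lamb2*, whose product is concentrated at neuromuscular synapses and in kidney and vessel basement membranes, was the most abundant per kilobase (152 ± 7.41 in Sirt6mKO, 101 ± 10.4 in Ctrl). It stood at 873, 949 and 953 in Sirt6mKO and at 625, 668 and 543 in Ctrl. The spread within each group was small beside the gap between them, and the 1.51-fold difference passed the adjusted p but not the 2-fold change (log2 fold change 0.60 ± 0.11, limma-trend adjusted p = 0.0091). Without Sirt6mKO replicate 2 the adjusted p was 0.057. *Lamb1*, the β1 chain that pairs with α2 along the myofiber, had a signal of 328, 297 and 433 in Sirt6mKO and 306, 155 and 133 in Ctrl. Ctrl replicate 1 lay within the Sirt6mKO range, and with all libraries *Lamb1* did not pass (log2 fold change 0.91 ± 0.25, adjusted p = 0.064), whereas without Ctrl replicate 1 it was 1.27 with an adjusted p of 0.0017. That library was the one with high *Nid1* as well. *Lamb3*, of epithelial laminins, was at 1 to 5 and was not tested.

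The largest change among the tested laminin genes was in a γ chain. *Lamc1*, the γ1 chain of most laminins, had the highest signal per kilobase of all 33 genes in both groups (472 ± 77.8 in Sirt6mKO, 507 ± 72.9 in Ctrl). It stood at 3236, 3959 and 4519 in Sirt6mKO and at 4596, 4487 and 3501 in Ctrl, with a log2 fold change of -0.11 ± 0.15 (95% interval -0.43 to 0.22). The interval leaves out a 2-fold change in either direction.

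*Lamc3* encodes the γ3 chain, a less common chain found in nerve, retina and the reproductive tract. It stood at 413, 289 and 386 in Sirt6mKO and at 149, 139 and 75 in Ctrl. The lowest Sirt6mKO library was far above the highest Ctrl library, and the level was 3.08-fold higher (log2 fold change 1.62 ± 0.23, limma-trend adjusted p = 0.0018). The log2 fold change stayed between 1.31 and 1.80 when any 1 library was left out, with an adjusted p of at most 0.028. Of its exons 6.27% overlap the antisense gene *Gm13441*. The methods exclude reads that overlap several genes, but the use of strand in counting is not stated. Whether *Lamc3* reads in that stretch were counted or dropped is therefore not known. The nearest tested neighbour, *Aif1l*, 3599 bp away, had a log2 fold change of -0.64 ± 0.18 (adjusted p = 0.069), and none of 4 tested neighbours within 100 kb passed both thresholds.

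Taken per kilobase, the mixture of chains in each class could be compared between groups. *Lamc3* made up 14.6, 8.89 and 10.2% of the summed γ chain signal in Sirt6mKO and 4.17, 3.98 and 2.81% in Ctrl, a mean of 11.3 ± 3.01 against 3.65 ± 0.739% (SD, n = 3). Correspondingly *Lamc1* made up 87.5 ± 2.68 and 95.3 ± 1.03%. The share of *Lama5* in the α chains was 11.3 ± 1.95% in Sirt6mKO and 6.28 ± 0.888% in Ctrl, without overlap of the groups. By contrast *Lamb2* held 81 ± 2.9 and 83.5 ± 5.8% of the β chain signal, with overlapping libraries. With 3 libraries against 3 an exact two-sided permutation test cannot give a p below 0.1, and no share among the 20 compared had an adjusted p under 0.18. So *Lama2* and *Lamc1* remained the leading chains in every library, with *Lama5* and *Lamc3* as a larger minority in Sirt6mKO.

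**Figure D3:**
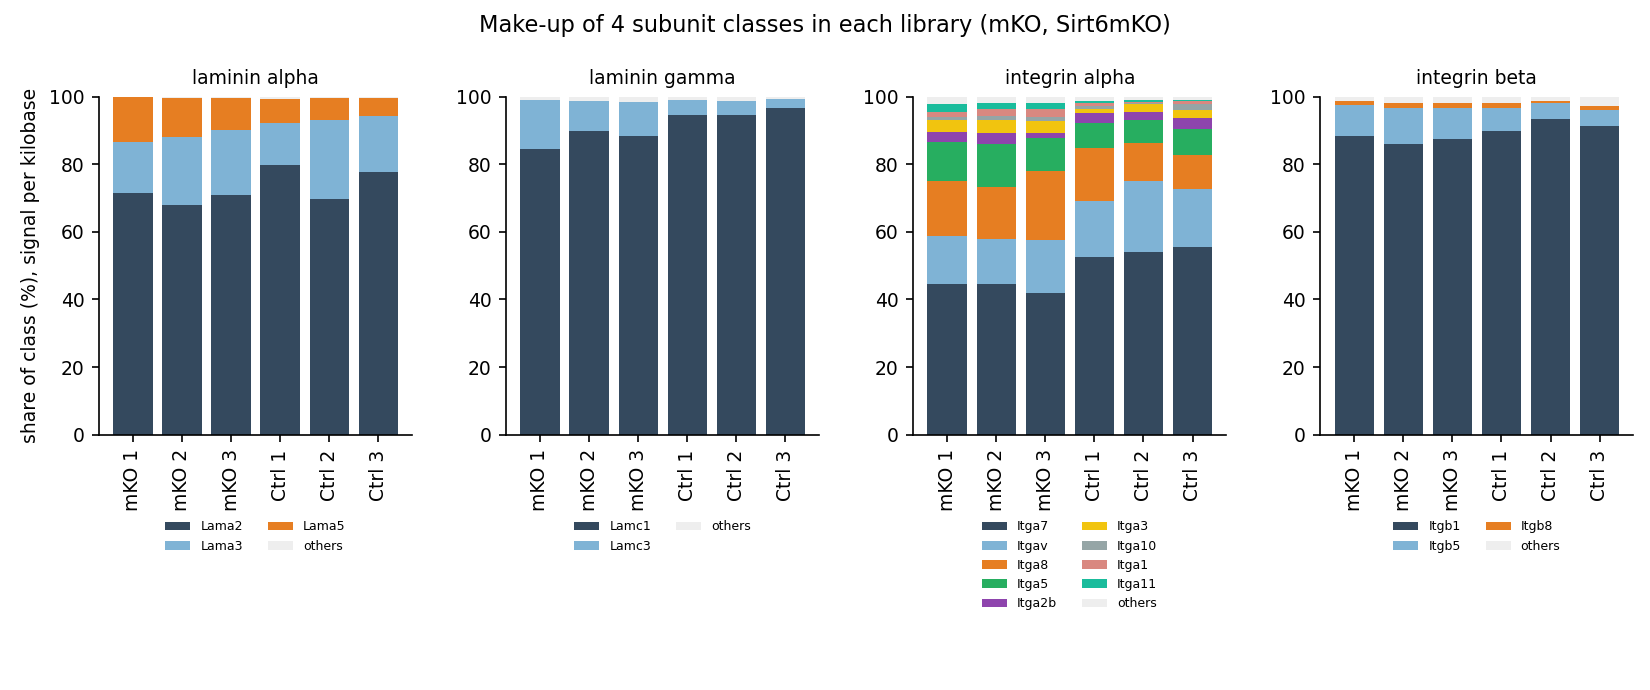
Share (%) of each gene in the summed signal per kilobase of its class, in 4 panels for laminin α, laminin γ, integrin α and integrin β, with 1 stacked bar per library (mKO, Sirt6mKO). The pale remainder holds the genes not drawn singly. *Lamc3* takes 8.89 to 14.6% of the γ bar in Sirt6mKO and 2.81 to 4.17% in Ctrl, and *Itga7* takes 41.9 to 44.6% and 52.7 to 55.4% of the integrin α bar.

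Among the laminin receptors, *Itga7* was the most abundant α subunit gene (93.3 ± 4.52 per kilobase in Sirt6mKO, 115 ± 2.82 in Ctrl). It stood at 762, 787 and 715 in Sirt6mKO and at 954, 925 and 909 in Ctrl. All Sirt6mKO libraries lay below all Ctrl libraries, yet the difference was small and did not pass (log2 fold change -0.30 ± 0.10, limma-trend adjusted p = 0.12). Its level is conditioned on a gate for its own protein where that gate was used. *Itga3*, of the α3β1 laminin receptor of epithelia, had a signal of 41, 48 and 43 in Sirt6mKO and 15, 28 and 29 in Ctrl. These groups did not overlap either, in the opposite direction, and the adjusted p was 0.091 at a log2 fold change of 0.90 ± 0.27. *Itga6*, of a receptor found on many epithelial stem cells, was at 2 to 6 and was not tested.

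All 4 collagen receptor subunits had a log2 fold change above 0, with a median of 1.52, and 2 of them passed both thresholds. One of the 4, *Itga2*, reached the filter only through the Sirt6mKO libraries, and *Itga10* went from 0.67 to -0.11 without Ctrl replicate 2. Their signals were low, with a sum of 109 to 136 in Sirt6mKO and of 27 to 65 in Ctrl. *Itga1*, which prefers basement membrane collagen IV, had 3.96 ± 1.12 per kilobase in Sirt6mKO and 1.68 ± 0.604 in Ctrl, close to *Itga11* in Sirt6mKO (4.16 ± 0.961) and to *Itga10* in Ctrl (1.99 ± 1.55). It stood at 51, 78 and 92 in Sirt6mKO and at 41, 19 and 34 in Ctrl. The groups did not overlap but came within 10 units of each other, and the level was 2.35-fold higher (log2 fold change 1.23 ± 0.29, limma-trend adjusted p = 0.033). This call was sensitive to single libraries. Without Ctrl replicate 1 the adjusted p was 0.021, but it was 0.053, 0.16 and 0.13 without Sirt6mKO replicates 1, 2 and 3, and 0.099 and 0.052 without Ctrl replicates 2 and 3. Of the *Itga1* exons 3.68% are shared with *Gm49395* on the same strand.

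*Itga11*, a receptor for fibrillar collagen known from fibroblasts and other mesenchymal cells, had a signal of 27, 19 and 18 in Sirt6mKO and 6, 6 and 4 in Ctrl. Behind these lay 32, 25 and 19 reads in Sirt6mKO and 5, 8 and 2 in Ctrl. Every Sirt6mKO library held at least 3 times the highest Ctrl signal, and the fitted difference was 3.51-fold (log2 fold change 1.81 ± 0.36, limma-trend adjusted p = 0.013), on a scale where the added 1 understates changes of low genes. Without Sirt6mKO replicate 1 the adjusted p was 0.10 and without replicate 2 it was 0.065. None of its 5 tested neighbours within 100 kb passed both thresholds.

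*Itga2*, which lies 20995 bp from *Itga1* on the same strand of chromosome 13 and encodes the collagen receptor of platelets and epithelia, had a signal of 19, 13 and 12 in Sirt6mKO and 7, 0 and 2 in Ctrl. The groups did not overlap, and the fitted log2 fold change of 2.41 ± 0.65 was the largest of all members, but the adjusted p was 0.058. Its mean in Ctrl was under the filter, so it entered the test only through the Sirt6mKO libraries, and without Ctrl replicate 1 its adjusted p was 0.011. *Pelo*, which lies within *Itga1*, had a log2 fold change of 0.10 ± 0.28 (adjusted p = 0.91), and *Mocs2*, next to *Itga2*, one of 0.26 ± 0.14 (adjusted p = 0.37). *Itga10*, a chondrocyte collagen receptor, was at 12 to 14 in Sirt6mKO and 2 to 18 in Ctrl. Of its exons 33.53% are shared with *Gm42957* on the same strand, which makes its level uncertain.

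Of the 4 RGD-binding subunits 2 had a log2 fold change above 0 and 1 passed the adjusted p. *Itga5*, the fibronectin receptor subunit, had a signal of 121, 136 and 100 in Sirt6mKO and 80, 70 and 75 in Ctrl. The groups did not overlap, and the 1.57-fold difference passed the adjusted p alone (log2 fold change 0.65 ± 0.16, limma-trend adjusted p = 0.038). That call held without Sirt6mKO replicate 3 (adjusted p = 0.038) and was lost without any other library, at 0.17 and 0.19 without Sirt6mKO replicates 1 and 2 and at 0.053, 0.11 and 0.072 without Ctrl replicates 1, 2 and 3. *Itgav*, the partner of several β subunits, was at 319, 311 and 355 in Sirt6mKO and 395, 476 and 378 in Ctrl. These groups were also apart, at a log2 fold change of -0.34 ± 0.12 that did not pass (adjusted p = 0.16).

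*Itga8*, the nephronectin receptor subunit, had a signal of 255, 251 and 317 in Sirt6mKO and 259, 179 and 151 in Ctrl. Ctrl replicate 1 fell within the Sirt6mKO range, so the groups overlapped (log2 fold change 0.51 ± 0.18, limma-trend adjusted p = 0.15), and without that library the adjusted p was 0.021. *Itga2b*, the platelet αIIb subunit, was at 19 to 40 in Sirt6mKO and 28 to 37 in Ctrl. *Itga9*, whose product binds tenascin C, was at 0 to 5, and the leukocyte subunit genes *Itgal* and *Itgae* were at 2 to 7 and 1 to 4. These 3 genes were not tested. Antisense or other opposite-strand genes overlap 5.05% of the exons of *Itga8* and 5.9% of those of *Itgav*.

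Of the β subunits, *Itgb1*, the partner of all laminin and collagen receptor α subunits described above, dominated (416 ± 7.89 per kilobase in Sirt6mKO, 418 ± 40.9 in Ctrl). It stood at 1707, 1661 and 1723 in Sirt6mKO and at 1661, 1888 and 1563 in Ctrl. The Sirt6mKO libraries lay inside the range of the controls, and the 95% interval of the log2 fold change was -0.24 to 0.23. *Itgb5*, which pairs with αv to bind vitronectin, was the second β subunit, with a signal of 157, 177 and 156 in Sirt6mKO and 114, 87 and 70 in Ctrl. Without overlap between groups it was 1.83-fold higher (log2 fold change 0.87 ± 0.18, limma-trend adjusted p = 0.014), whereas its partner *Itgav* was not. The adjusted p of *Itgb5* was 0.077 and 0.090 without Sirt6mKO replicates 1 and 2, and just above the threshold at 0.050 without Ctrl replicate 2.

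*Itgb8*, whose product activates latent TGF-β together with αv, was at 59, 84 and 76 in Sirt6mKO and 63, 24 and 54 in Ctrl (log2 fold change 0.72 ± 0.30, limma-trend adjusted p = 0.23). *Itgb4* (12 to 28), *Itgb6* (4 to 14) and *Itgb7* (6 to 18) were low and overlapped between groups. *Itgb2*, the leukocyte β subunit, was at 0 or 1 in Sirt6mKO and 1 to 4 in Ctrl, and *Itgb3*, the platelet and αv partner, was at 0 to 2, and both were left out of the test.

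Within the integrin α class, the share of *Itga7* was 44.6, 44.5 and 41.9% in Sirt6mKO and 52.7, 54 and 55.4% in Ctrl. The share of *Itga5* was 11.3 ± 1.53 and 7.15 ± 0.407%, and that of *Itga8* 17.5 ± 2.57 and 12.4 ± 2.93% with overlapping libraries. *Itga1* and *Itga11* together stayed a small part, at 1.85 ± 0.527 and 1.95 ± 0.469% in Sirt6mKO and 0.79 ± 0.27 and 0.486 ± 0.0897% in Ctrl. Among the β subunits *Itgb1* held 87.3 ± 1.13 and 91.4 ± 1.77%, and *Itgb5* 9.66 ± 0.769 and 5.57 ± 1.31%. The exact two-sided permutation p was 0.1 for each of these except *Itga8* (0.2), the smallest that this design can give.

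The partners of laminin in the basement membrane were described as a list of 24 genes, of which 19 were tested. In that list 2 were higher past both thresholds, 0 lower and 14 above 0, with a median log2 fold change of 0.41. For this and the lists below, 1.57% of all tested genes were higher and 1.02% lower past both thresholds. By the adjusted p alone the shares were 2.64% and 1.88%. *Nid1*, nidogen 1, which ties the γ1 chain to collagen IV, had a signal of 999, 897 and 1370 in Sirt6mKO and 679, 227 and 183 in Ctrl (log2 fold change 1.81 ± 0.36, limma-trend adjusted p = 0.013). Its adjusted p was 0.056 to 0.082 without any 1 of the Sirt6mKO libraries, 0.072 without Ctrl replicate 2 and 4.9e-05 without Ctrl replicate 1. Its homologue *Nid2* was at 304, 329 and 351 in Sirt6mKO and 205, 204 and 143 in Ctrl, a smaller difference with less spread (log2 fold change 0.85 ± 0.15, adjusted p = 0.0068) that passed with each library left out. *Smoc1*, a calcium-binding basement membrane protein, was at 71, 72 and 61 against 25, 9 and 18 (log2 fold change 2.01 ± 0.31, adjusted p = 0.0035). Per kilobase the highest of the list were *Col4a1*, a collagen IV chain, in Sirt6mKO (633 ± 18.8, against 572 ± 175 in Ctrl) and *Sparc*, a collagen-binding matrix protein, in Ctrl (826 ± 65, against 624 ± 99.9 in Sirt6mKO). Neither passed (log2 fold change 0.19 ± 0.18 and -0.41 ± 0.13, adjusted p = 0.65 and 0.10). *Hspg2*, perlecan, was at 5310, 6223 and 5560 in Sirt6mKO and 4667, 4269 and 2922 in Ctrl, and did not pass (adjusted p = 0.084).

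Of 10 laminin receptors other than integrins 2 were lower by the adjusted p alone and 1 was higher, with none past both thresholds. Over all tested genes 1.88% were lower and 2.64% higher by the adjusted p. *Bcam*, the Lutheran glycoprotein that binds the α5 chain, had a signal of 73, 64 and 82 in Sirt6mKO and 122, 160 and 136 in Ctrl (log2 fold change -0.92 ± 0.16, limma-trend adjusted p = 0.0065). It was lower in every Sirt6mKO library while its ligand gene *Lama5* was higher in every one. *Mcam*, an adhesion molecule that binds the α4 chain, was at 57, 51 and 66 against 93, 149 and 111 (log2 fold change -0.99 ± 0.19, adjusted p = 0.012). Its adjusted p was 0.076 and 0.075 without Sirt6mKO replicates 1 and 2 and 0.054 without Ctrl replicate 2. *Cd44* was higher (log2 fold change 0.53 ± 0.13, adjusted p = 0.034), a call kept only when Ctrl replicate 1 was the library left out. *Dag1*, dystroglycan, which binds the α2 chain, was the most abundant of the list per kilobase, at a signal of 6342, 6922 and 6742 in Sirt6mKO and 8850, 8365 and 6970 in Ctrl, and did not pass (log2 fold change -0.27 ± 0.13, adjusted p = 0.31).

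Of the other integrin ligands, 18 of 27 listed genes were tested, with 2 higher past both thresholds, 0 lower and a median of 0.40. Both were chains of collagen I, the fibrillar ligand of the *Itga11* and *Itga2* products. *Col1a2* had a signal of 782, 1299 and 1162 in Sirt6mKO and 173, 63 and 65 in Ctrl (log2 fold change 3.55 ± 0.31, limma-trend adjusted p = 8.5e-05). *Col1a1* was at 420, 1063 and 645 against 487, 128 and 81, with Ctrl replicate 1 inside the Sirt6mKO range (log2 fold change 1.94 ± 0.50, adjusted p = 0.047). The call for *Col1a1* was lost without each library except Ctrl replicate 1, with adjusted p-values of 0.10 to 0.23, and was 7.0e-04 without Ctrl replicate 1. *Col3a1*, the most abundant ligand gene per kilobase, was at 6685 to 8461 and 5795 to 8595, and *Fn1*, fibronectin, at 134 to 294 and 131 to 195, both overlapping.

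Inside the cell, 45 of 50 genes of the adhesome, the proteins that join integrins to actin and signalling, were tested. Only *Tns1* passed both thresholds, 28 were above 0, and the median was 0.09. *Tns1*, tensin 1, which binds the β subunit tail and actin, had a signal of 658, 655 and 638 in Sirt6mKO and 223, 153 and 100 in Ctrl (log2 fold change 2.10 ± 0.22, limma-trend adjusted p = 2.0e-04). *Arhgef7*, the β-PIX exchange factor of focal adhesions, was at 383, 389 and 411 against 669, 804 and 730, lower by the adjusted p alone (log2 fold change -0.89 ± 0.11, adjusted p = 8.1e-04). Both passed with any single library left out. The highest adhesome gene per kilobase was *Flna*, filamin A, in Sirt6mKO, with a log2 fold change of 0.23 ± 0.11 that did not pass (adjusted p = 0.33). The third gene past the adjusted p, *Cd82*, a tetraspanin that associates with integrins and the highest per kilobase in Ctrl, was lower (log2 fold change -0.47 ± 0.11, adjusted p = 0.032), which was lost without each library except Ctrl replicate 3.

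The sorted cells carried MuSC transcripts in every library. The study reports that sorted cells, when analysed again, were not fully pure, so other cells can contribute to these values. A purity for each library is not given. *Pax7* had a signal of 1841, 2307 and 1810 in Sirt6mKO and 4066, 3449 and 3150 in Ctrl (log2 fold change -0.84 ± 0.13, limma-trend adjusted p = 0.0041). Pax7ICN, at the *Pax7* locus, is described for Sirt6mKO mice and not for controls. Its part in the *Pax7* level therefore cannot be told apart from that of *Sirt6* loss. *Chrdl2* was lower past both thresholds (log2 fold change -1.10 ± 0.16, limma-trend adjusted p = 0.0021). *Cd34*, the other antigen of the gate, was higher by the adjusted p alone (log2 fold change 0.60 ± 0.14, adjusted p = 0.031), a call kept without Ctrl replicates 2 and 3 only. Of the 15 quiescence genes tested 1 was lower past both thresholds and 0 higher.

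Several genes of the matrix are also made by other cells of muscle, so marker lists of those cells were read beside the members. Of 9 tested fibroblast markers 3 were higher past both thresholds, namely *Pdgfra* (14, 22 and 38 against 9, 4 and 2), *Col1a1* and *Clec3b* (109, 22 and 78 against 1, 0 and 0). All 9 were above 0, with a median log2 fold change of 1.39. Of these, *Clec3b* and *Smoc2* entered the test only through the Sirt6mKO libraries. Of the 9, only *Clec3b* ordered the Sirt6mKO libraries as *Lamc3* did, with replicate 1 highest and replicate 2 lowest. *Pdgfra*, *Lum* and *Smoc2* ordered them as *Itga1* did, with replicate 3 highest and replicate 1 lowest. Among the Sirt6mKO libraries *Col1a1* and *Dcn* were also lowest in replicate 1, *Col3a1* and *Dpt* in replicate 2 and *Gsn* in replicate 3. The summed signal of the list was 12152 to 13671 in Sirt6mKO and 8813 to 13218 in Ctrl, most of it from *Col3a1* and *Gsn*. The marker *Ly6a*, which encodes the depleted antigen Sca1, was at 0 to 2 in both groups. No tenocyte marker of 8 passed, though 6 were above 0 and their median log2 fold change was 2.04. Their sums of 2818 to 3869 and 3000 to 3151 came mostly from *Chodl* (2579 to 2759 against 2949 to 3076). Since *Chodl* was high in every library, these sums say little about the other listed genes. Of the 8, *Fmod*, *Thbs4*, *Kera*, *Tnmd* and *Comp* were highest in Sirt6mKO replicates 2 and 3, with *Kera*, *Tnmd* and *Comp* entering the test only through these libraries. *Scx* was at 33, 27 and 24 against 16, 23 and 23, and *Mkx* at 1, 10 and 6 against 6, 15 and 13. In replicate 1, where *Fmod* was at 11 and *Kera* at 0, *Lamc3* and *Lama5* were at their highest, at 413 and 471, and so was *Itga11* at 27. *Itga1*, at 51, was at its lowest of the 3 in that replicate.

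**Figure D4:**
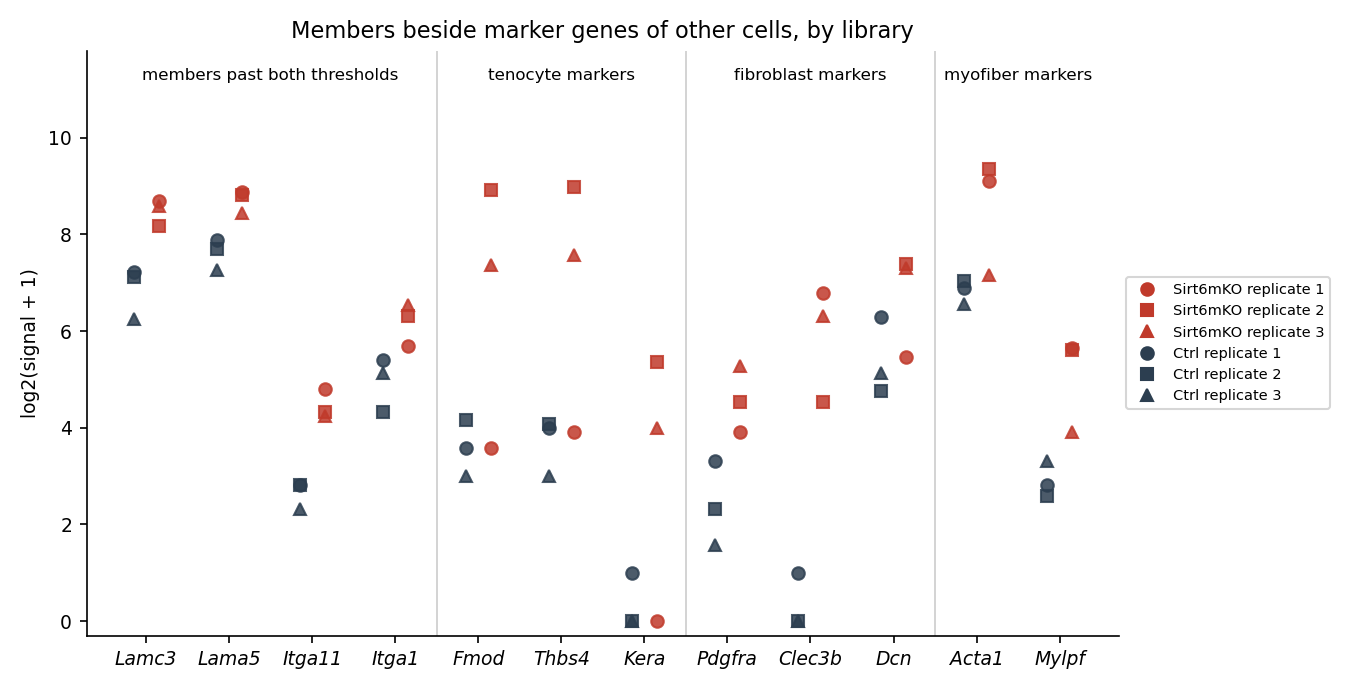
log2(signal + 1) of the 4 members past both thresholds beside markers of tenocytes, fibroblasts and myofibers, with 1 point per library (Sirt6mKO red, Ctrl dark blue, shape by replicate number). The 3 tenocyte markers drawn, *Fmod*, *Thbs4* and *Kera*, are raised in Sirt6mKO replicates 2 and 3 but not in replicate 1, whereas *Lamc3*, *Lama5* and *Itga11* are above all controls in the 3 Sirt6mKO libraries.

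Of 12 myofiber markers 2 were higher past both thresholds, *Acta1* (548, 656 and 143 against 118, 131 and 93) and *Mylpf* (49, 48 and 14 against 6, 5 and 9), with sums of 1590 to 3182 in Sirt6mKO and 1210 to 1425 in Ctrl. Of the 12 markers 11 were above 0, with a median log2 fold change of 0.95. Among the Sirt6mKO libraries, *Acta1* and *Mylpf* were lowest in replicate 3, where *Itga1* (92) and *Lamb1* (433) were at their highest. *Lama5* (345) and *Itga11* (18) were also at their lowest of the Sirt6mKO libraries there, and *Lamc3* (386) lay in between. Sums of the endothelial list (400 to 472 against 484 to 585), in which *Tek* was the most abundant per kilobase, and of the immune list (46 to 83 against 44 to 78), led by *Cd68*, held no gene past either threshold among 4 and 2 tested. Mural markers, led by *Notch3*, summed to 4540 to 5594 and 2956 to 4153, and Schwann cell markers, led by *Ncam1*, to 2896 to 3008 and 2593 to 2898, with 0 called in each. The endothelial, mural and Schwann cell sums came mostly from their leading genes, so they say little about the other listed genes. *Notch3* is on the list of quiescence genes as well. *Clec3b* passed with any 1 library left out, whereas *Pdgfra* passed only without Ctrl replicate 1, *Acta1* only without Sirt6mKO replicate 3, and *Mylpf* without Sirt6mKO replicate 3 or Ctrl replicate 1 or 3. Of 14 immediate early genes, which respond to tissue dissociation, 6 were higher by the adjusted p and 1, *Egr2*, past both thresholds, although its adjusted p held only without Ctrl replicate 2. Their sum was 16651 to 19287 in Sirt6mKO and 10086 to 12667 in Ctrl, and *Fos*, the most abundant per kilobase, had a log2 fold change of 0.75 ± 0.14 (limma-trend adjusted p = 0.0081). The part of other cells, of dissociation and of the fibroblast, myofiber and immediate early transcripts in the laminin and integrin differences was not tested.

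The firmness of the calls differed among members. *Lamc3* and *Lama5* passed the adjusted p under all 17 alternatives, made up of other scalings, filters, pseudocounts and models, the replicate block and the omission of each library. *Lamb2* passed in 16 of 17, *Itgb5* in 14 of 17, *Itga11* in 14 of 16, and *Itga1* and *Itga5* in 11 of 17. *Itga2* passed in 5 of 16 and *Lamb1* in 4 of 17, though neither did in the fit reported here.

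**Figure D5:**
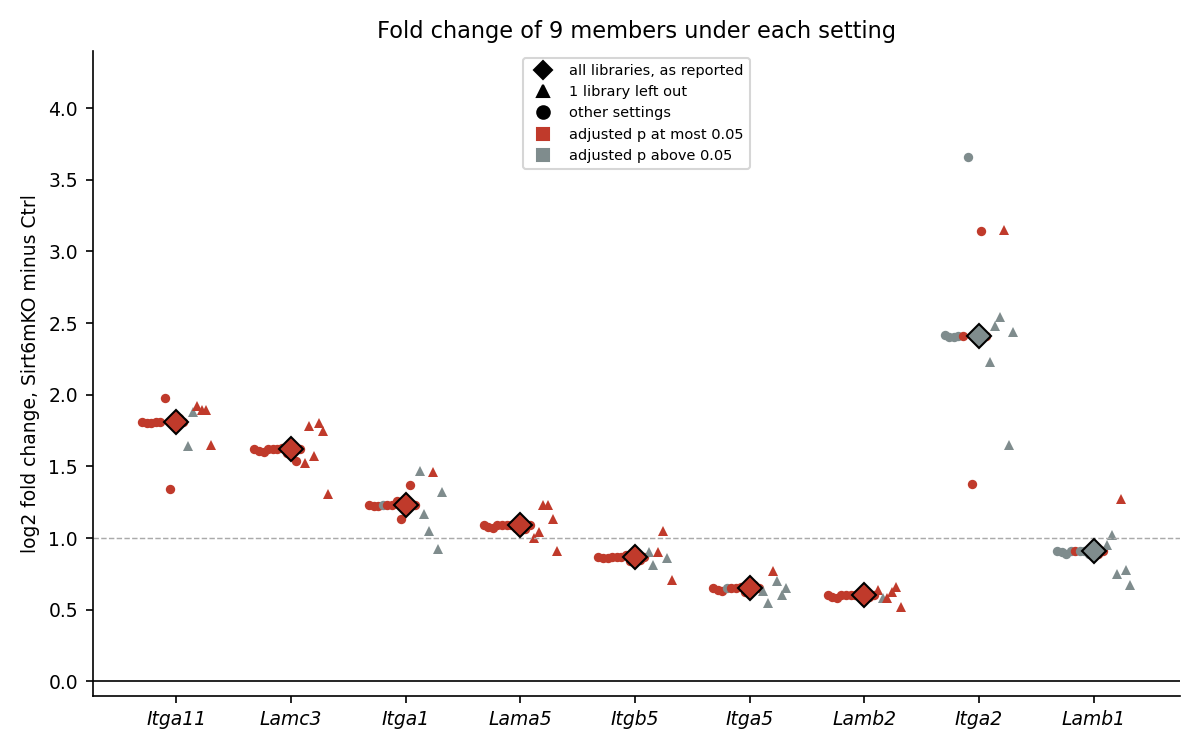
Log2 fold change, Sirt6mKO minus Ctrl, of the 7 members past the adjusted p and of *Itga2* and *Lamb1* with all libraries (diamonds), with 1 library left out (triangles) and under other settings (circles), where red points have an adjusted p of at most 0.05 and grey points do not, and the dashed line marks 2-fold. All points lie above 0, and those of *Lamc3* and *Lama5* are all red.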

How the data were processed

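RNA of MuSCs from 3 Sirt6mKO and 3 Ctrl samples was sequenced on a NextSeq500 in single-end mode. According to the labels, RiboGone depletion and a SMARTer Stranded Total RNA kit were used, whereas the methods name RiboMinus and an Ion Total RNA-Seq kit. Per the submitters' processing notes, the authors used Trimmomatic 0.39, STAR 2.7.10a on mm10/GRCm38, featureCounts 2.0.2 and DESeq2 1.30.1, and the methods exclude reads that overlap several genes. Whether strand was used in counting is not given in the sources used here. The deposited values are a signal: the authors divided the reads per gene by 1 size factor per library and rounded to whole numbers. The factors (0.558 to 1.372) were found from the whole numbers that Ctrl replicates 1 and 3 never take, 27 of those from 1 to 60 in Ctrl replicate 3, and from the spacing of values in the other libraries, and 99.60 and 99.61% of the low values of these 2 controls can be reached from whole reads. Since scaled and rounded values are no counts, no test for counts was run.

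Sirt6mKO minus Ctrl was estimated on log2(signal + 1) by limma-trend (limma 3.58.1, R 4.3.3) for the 14227 genes whose mean signal reached 5, with Benjamini-Hochberg adjustment over all of them. Both thresholds means an adjusted p no larger than 0.05 with at least a 2-fold change. Shares were taken per kilobase of merged GENCODE exons (GRCm38, all 33 members at the same coordinates as deposited) and compared by exact two-sided permutation tests, adjusted over 20 shares. Tables were handled in Python 3.11.15 with pandas 2.3.3, and the procedure was tested on simulated data. Named are the members past the adjusted p, *Lama5*, *Lamc3*, *Itga1*, *Itga11*, *Itga7*, the most abundant member per kilobase of each role, and, from the other lists, genes past both thresholds and the most abundant gene per kilobase of each, a scale set after seeing the data. Others, such as *Nid2*, *Bcam* and *Mcam*, were named after their values were seen, and 1 tested member is counted but not reported here. The members and lists were chosen with earlier results of these data known, and most lists come from textbook roles. Alternatives were 3 other scalings, 3 filters, 2 pseudocounts, robust empirical Bayes, limma voom on rebuilt reads, the replicate number as a block, the adjusted p alone and the omission of each library.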

Additional observations from a re-analysis of the deposited data

How the results depend on the processing

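The number of members higher past both thresholds, 4 as reported, was 2 to 7 with 1 library left out (2 without Sirt6mKO replicate 1, Sirt6mKO replicate 2 or Ctrl replicate 3, and 7 without Ctrl replicate 1) and 7 by the adjusted p alone. It was 3 to 5 under the other settings. No member was lower under any alternative. Over all genes 223 were higher and 145 lower, which became 76 and 52 at a mean of at least 50, 376 and 267 by the adjusted p alone, and 88 to 294 and 81 to 151 with 1 library left out. The fewest were found without Sirt6mKO replicates 1 (92 and 81) and 2 (88 and 91), and without Ctrl replicate 2 there were 89 lower. Of the basement membrane, receptor, ligand and adhesome genes 5 were higher and 0 lower. The higher count was 3 at a mean of at least 50 and with robust empirical Bayes, and 3 to 8 with 1 library left out (3 without Sirt6mKO replicate 2 or 3 or Ctrl replicate 2, and 8 without Ctrl replicate 1). The lower count was 1 with upper quartile scaling, equal totals and voom, 4 by the adjusted p alone, and 0 to 2 with 1 library left out (2 without Sirt6mKO replicate 3 or Ctrl replicate 1).

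For the 7 members past the adjusted p, 16 of 42 values with 1 library left out and 2 of 76 under other settings lost the call, the 2 being *Itga1* (adjusted p = 0.062) and *Itga5* (0.066) in the limma-trend fit with no filter on low values. None of the 7 turned. For the other tested members reported here 11 of 102 values with 1 library left out changed sign. Their ranges were -0.45 to 0.34 for *Lama4*, -0.23 to 0.02 for *Lamc1*, -0.11 to 1.22 for *Itga10*, -0.40 to 0.12 for *Itga2b*, -0.06 to 0.07 for *Itgb1*, -0.24 to 0.34 for *Itgb4* and -0.57 to 0.15 for *Itgb7*. *Itgb4* was also at -0.13 with voom. *Itga2* passed with a mean of at least 1 (limma-trend adjusted p = 0.049), a pseudocount of 5 (0.032), voom (0.044) and the replicate block (0.026), and *Lamb1* with a mean of at least 1 and voom (0.049 each) and the block (0.040). The cause of these changes was not tested. The share differences were also taken with each library left out, an alternative added after seeing the data. With 3 libraries per group such a shift is always smaller than the larger SD of both groups. A comparison with that SD therefore says nothing about how stable the shares are. The share difference of *Lama2*, -5.62 percentage points, was -8.73 without Ctrl replicate 2 and -3.54 without Ctrl replicate 1.

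The labels give both groups the replicate numbers 1 to 3, and same-numbered libraries deviated together only weakly (r = 0.02, 0.07 and 0.19 over 14227 genes). The value of 0.19, for replicates 3, was the highest of all pairs, while Sirt6mKO replicate 1 correlated best with Ctrl replicate 2 (0.07). Whether same-numbered samples were paired cannot be told from these values. With the replicate number as a block 5 members were higher and 0 lower, and 268 and 167 of all genes. Depth limits the low members most: 1 read stood for a signal of 1.792 in Ctrl replicate 3, and 3 reads for 5.38, above the mean signal in Ctrl of *Itga2* and *Itga11* (5.33) and that of the 8 untested members.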
